A study of Mus musculus with 11 samples.

Results

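The genes described here are 37 genes of T cells, natural killer (NK) cells and innate lymphoid cells, read in sorted dendritic cells of the mouse spleen. They were taken by name from a list chosen for what the genes are known to do in lymphocytes. Earlier results of these data were known when the list was chosen. All 37 were found among 22180 measured genes. Each gene was read from the probeset that names it alone in the platform's probe table, and for the gene with more than 1 such probeset, Gata3, from the brighter. The samples, all labelled C57BL/6, came from naive mice (6 arrays) or from mice that had received Eµ-Myc lymphoma cells, a B cell lymphoma driven by a Myc transgene under the immunoglobulin heavy chain enhancer (5 arrays). In the lymphoma mice the tumour made up on average 10 to 36% of splenic lymphocytes. The protocol text also lists CD11c.Cre and C/EBPβ flox mice, but no allele is named for any of these 11 samples. The sort took cells with CD11c and MHC class II on their surface and reached a purity above 95%. The comparison asks what changes in dendritic cells exposed to lymphoma.

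T cells recognise peptide on MHC molecules through the T cell receptor, whose signal is carried by the CD3 chains, and are tuned by costimulatory and inhibitory receptors such as CD28 and CTLA-4. NK cells and group 1 innate lymphoid cells carry no such receptor and balance activating receptors, such as NKp46 and NKG2D, against inhibitory ones that read MHC class I. Dendritic cells meet both kinds of lymphocyte in the spleen, present antigen to the first and supply cytokines to the second. A number of genes named for lymphocytes are also transcribed in some dendritic cells. A whole-transcript array of sorted cells therefore holds RNA of the dendritic cells themselves and of any lymphocytes sorted with them.

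Levels and differences are given in log2 units throughout. Array medians lay between 5.53 and 5.61, and the number of arrays limits the precision. The sort markers were high in both groups, with Itgax (the CD11c gene) at 12.11 ± 0.08 on naive arrays (SD, n = 6) and 11.98 ± 0.13 on exposed arrays (SD, n = 5). Of markers of other cells, 0 of 9 B cell markers passed the test. At an unadjusted p under 0.05 in limma 2 of the 9 were higher (7.17% of all genes) and 2 lower (5.05%). The mean of the 9 lay between 7.62 and 7.88 on naive and between 7.54 and 7.92 on exposed arrays. Markers of red pulp macrophages, the resident phagocytes of the spleen, spread far more. Their mean ranged from 8.17 to 9.42 on naive arrays and from 8.93 to 10.91 on exposed arrays, and 0 of 10 passed. At an unadjusted p under 0.05 in limma 7 of the 10 were higher (7.17% of all genes) and 0 lower. The median difference of the 10, exposed minus naive, was 0.75. The mean of the markers of type 2 conventional dendritic cells was lower on all 5 exposed arrays (9.85 to 10.10) than on all 6 naive arrays (10.14 to 10.31). Of the 8 markers 2 fell, Cd209a and Clec4a4 (0.546% of all genes). The differences of 6 were below 0 and those of 2, Sirpa (0.06) and Clec12a (0.13), above. Cd209a passed in all 11 fits with 1 array left out. Clec4a4 passed in 4 of them, those without naive array 3 or 5 or exposed array 1 or 6, and missed the threshold with the title number as a block (limma adjusted p = 0.0504). Arrays numbered 1 to 3 stood apart from arrays numbered 4 to 6 in both groups, for a reason the labels do not give, so differences within each number set are shown where they bear on a result.

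Olfactory receptor genes, which these cells should not express, served as a guide to dim signals. The 95th percentile of their mean levels was 5.61, called the dim mark below. Of the 37 genes, 14 were above it on all 11 arrays, 13 on none and 10 on some. Of the genes that define the lineages, Cd3e was above it on 4 arrays and Ncr1 on 10. The CD3 genes Cd3d and Cd3g, the NK receptor genes Klrb1c and Klre1, the NK cell regulator Eomes and the granzyme genes Gzma and Gzmb were above it on 0 arrays. Genes above it on every array included Klrd1, Klrk1, Cd5, Lag3, Tbx21, Icos and Cd8b1. A probeset's brightness also depends on its probes, so levels are not ranked between genes.

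**Figure D1:**
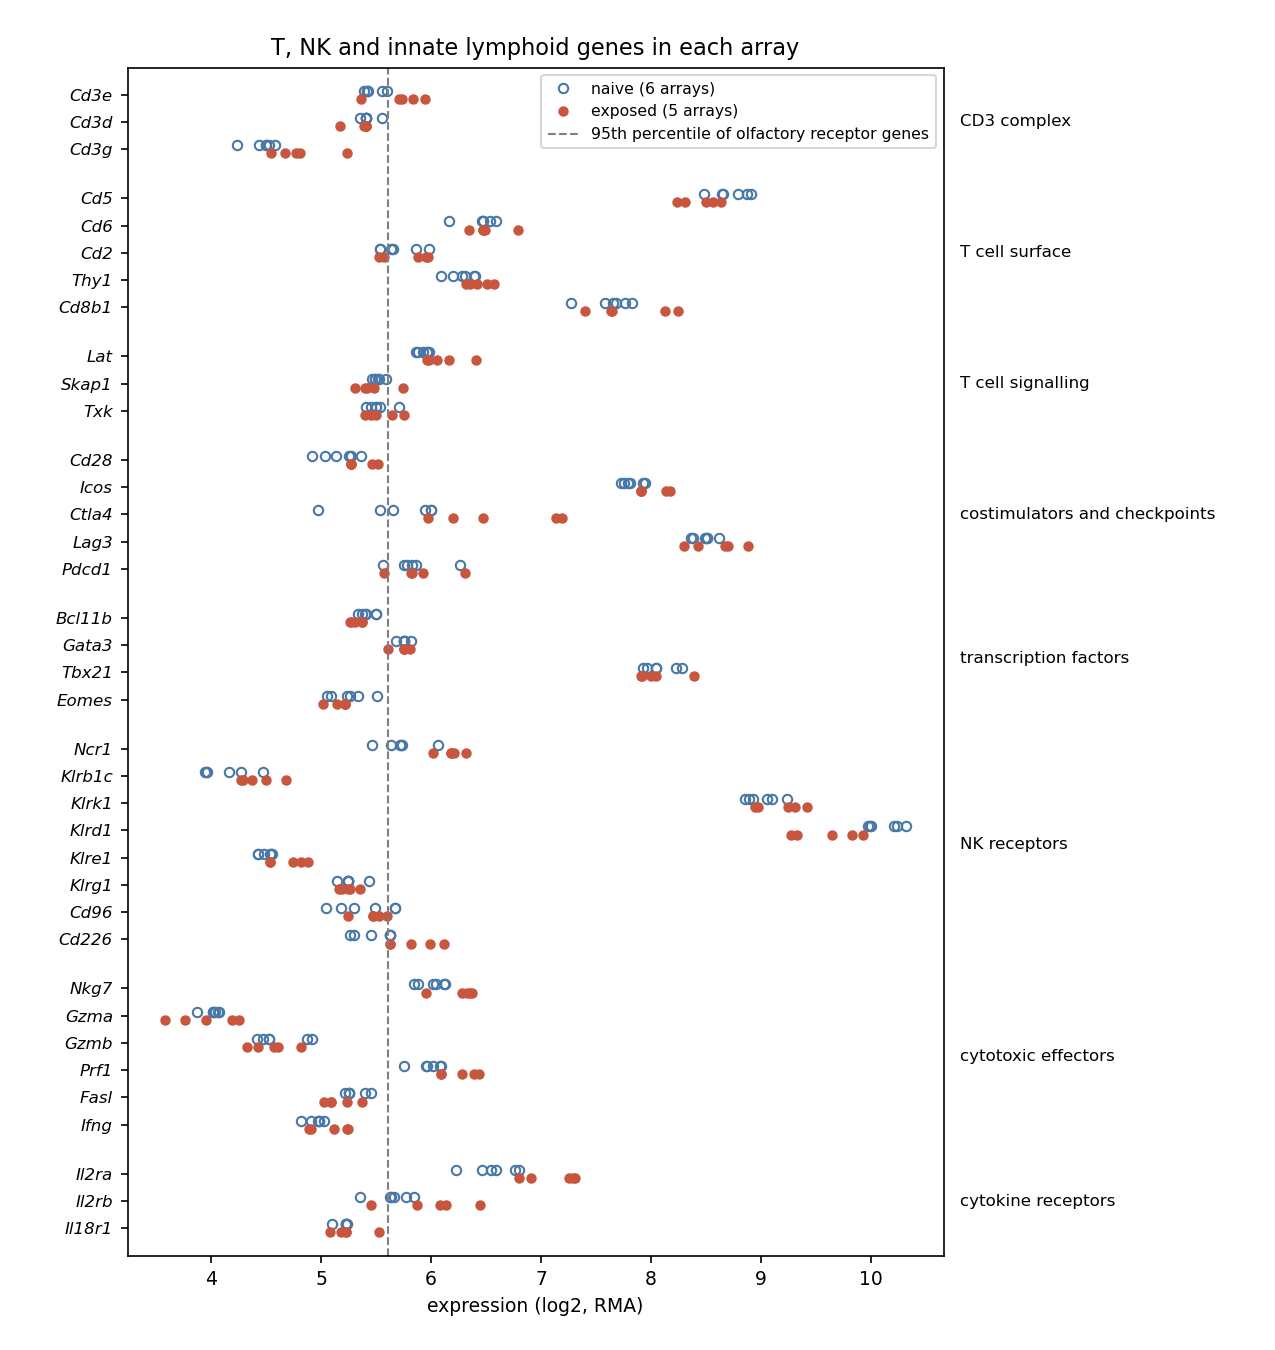
Expression of the 37 genes in every array, in log2 units, grouped by role. Open circles are the 6 naive arrays, filled circles the 5 exposed arrays, and the dashed line the dim mark at 5.61. Klrd1 is the gene whose exposed arrays all lie below the naive ones.

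Between exposed and naive cells 3 of the 37 genes changed. Il2ra, the high-affinity chain of the interleukin 2 receptor, and Ncr1, which encodes the NK receptor NKp46, were higher in exposed cells, and Klrd1, which encodes CD94, was lower. The threshold was 0.05 for the limma p-value, adjusted by Benjamini and Hochberg's method over all 22180 genes. By that rule 1.42% of all genes were called, 0.879% as higher and 0.546% as lower, against 8.11% of the list. At an unadjusted p under 0.05 the list held 15 higher genes (40.5%; 7.17% of all genes) and 2 lower genes (5.41%; 5.05% of all genes). Of the 37 differences 25 were above 0 (67.6%; 53.5% of all genes), and their median was 0.12, where the median over all genes was 0.008. Most were small, with 14 under 0.1 in size and 7 at 0.3 or more. In bulk RNA, a change in the share of cells of a type and a change in RNA per cell cannot be told apart. The labels do not say whether the arrays came from separate mice, so every p-value measures only the spread between these samples.

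The 3 calls lay near the threshold, and single arrays moved them. With 1 array left out in turn, the count of changed genes in the list lay between 0 and 3, and over all genes between 104 and 395, where the full set of arrays gave 316. The list's count was 0 without naive array 3, 4, 5 or 6 or exposed array 2, and 1 without naive array 1 or 2 or exposed array 1 or 3. A block on the number set gave 617 changed genes, with the same 3 genes of the list among them. Neither number set alone gave a call in the list. At an unadjusted p under 0.05 in limma, arrays 1 to 3 held 10 of the 37 genes, against 11.5% of all genes, and arrays 4 to 6 held 8 of the 37, against 7.84% of all genes. Aligning the arrays at their 75th percentile turned the split over all genes from 195 higher and 121 lower to 168 higher and 214 lower.

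**Figure D2:**
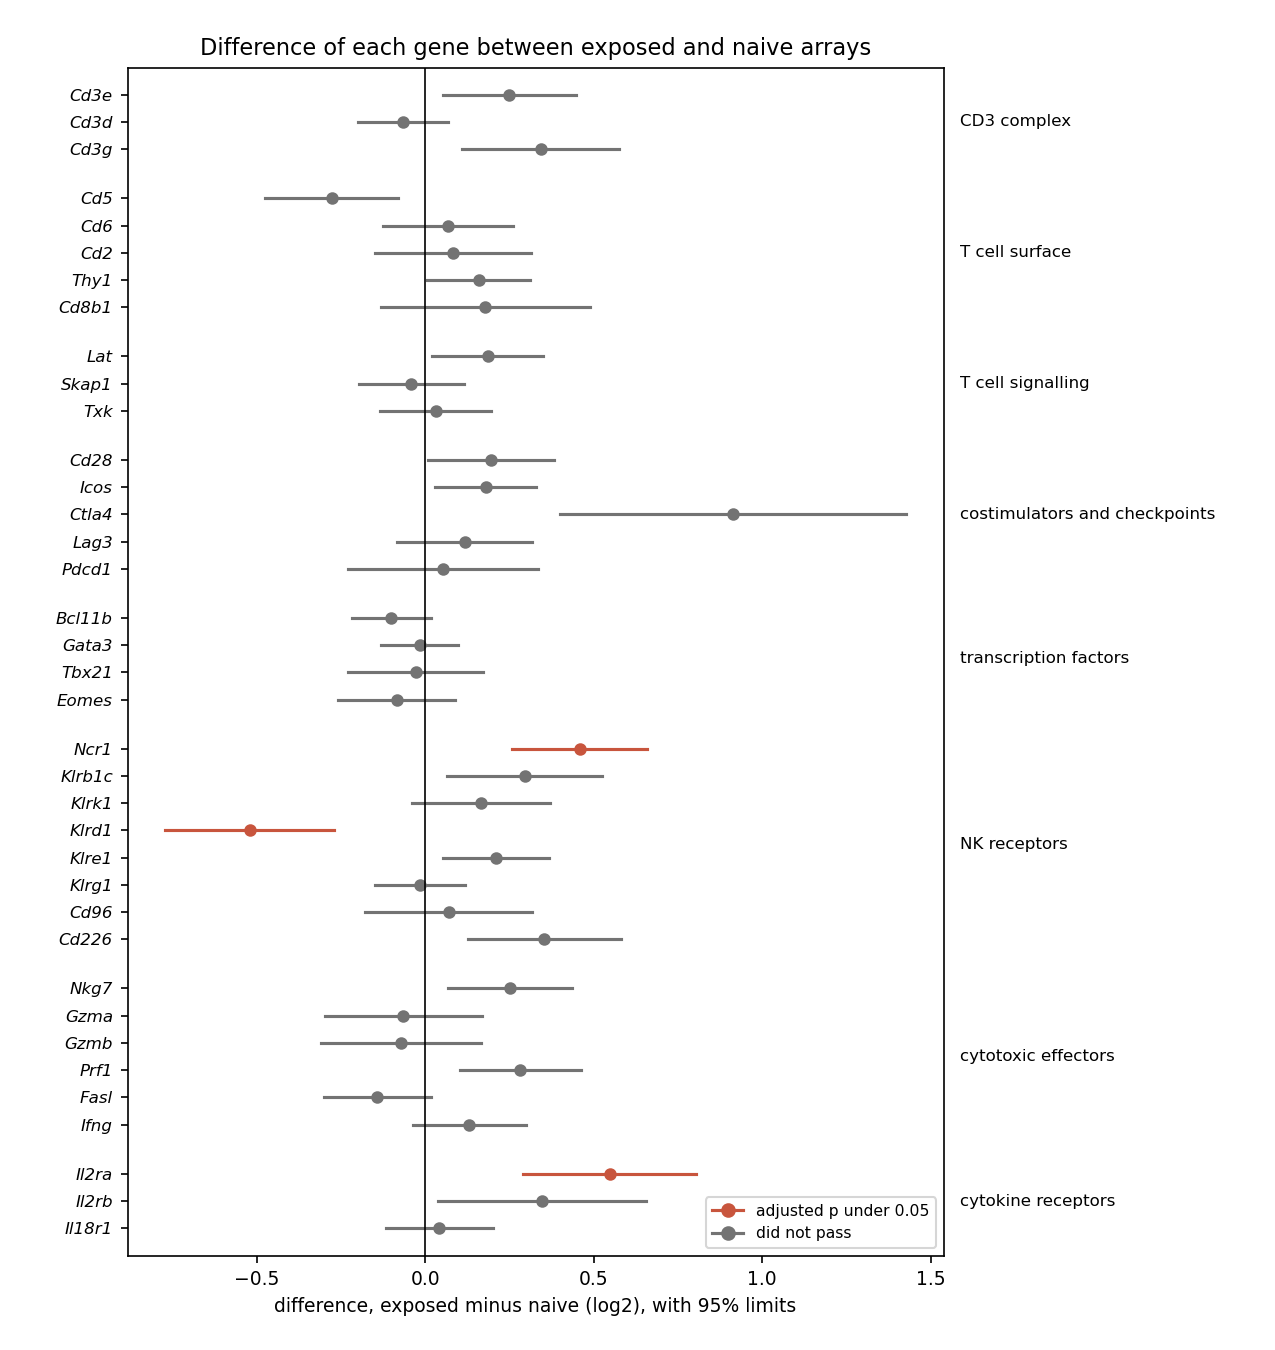
Difference between exposed and naive arrays for each of the 37 genes in log2 units, with limma's 95% limits. The 3 genes that passed over all genes are coloured. Ctla4 has the largest difference and the widest limits, and all 4 transcription factors lie a little below 0.

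The 3 cytokine receptor genes all lay on the higher side, as did 53.5% of all genes. Il2ra is induced on activated T cells, kept on regulatory T cells and found on mature dendritic cells. It measured 6.23 at the lowest, 6.56 at the median and 6.80 at the highest over the naive arrays (probeset 17366992). On exposed arrays 1, 2, 3, 4 and 6 it measured 7.29, 7.31, 6.91, 7.26 and 6.80. The groups did not overlap, by the narrowest of margins, since the highest naive array was at 6.7987 and the lowest exposed array at 6.7989. Among the 37 genes Il2ra alone was separated upward (2.70% of the list; 1.42% of all genes). It rose 1.46-fold, by 0.55 ± 0.12 (SE; limma adjusted p = 0.0389; exact permutation test, two-sided, p = 0.00216, the smallest that 462 divisions of the arrays allow). Arrays 1 to 3 gave 0.49 and arrays 4 to 6 gave 0.58. Il2ra passed without naive array 1, exposed array 3 or exposed array 6, and in no other fit with an array left out (adjusted p up to 0.117, without exposed array 2). The Il2ra difference also missed the threshold after quantile normalisation (0.51, adjusted p = 0.0591) and after alignment at the 75th percentile (0.51, adjusted p = 0.0656).

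Il2rb, the chain shared by the interleukin 2 and interleukin 15 receptors and carried by NK cells, differed by 0.35 ± 0.14 (SE; limma adjusted p = 0.333), and 4 exposed arrays exceeded the naive range. Exposed array 4 lay low, at 5.45, within the naive range of 5.35 to 5.85. Il18r1, the ligand-binding chain of the interleukin 18 receptor, differed by 0.04 (adjusted p = 0.890). Arrays 1 to 3 gave 0.13 for Il18r1 and arrays 4 to 6 gave -0.08. Of cytokine and homing receptor genes outside the list, 1 of 11 rose (0.879% of all genes) and 0 fell (0.546% of all genes). It was Il7r, the interleukin 7 receptor of T cells and innate lymphoid cells, which went from 7.83 ± 0.16 (SD, n = 6) to 8.41 ± 0.30 (SD, n = 5), and each exposed array exceeded the naive range (a difference of 0.58 ± 0.12, SE; limma adjusted p = 0.0311). Il7r passed in 4 of the 11 fits with an array left out, those without naive array 1 or exposed array 1, 3 or 6.

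For the 2 genes of the list that rose, the sequence upstream of the start site is shown, since the study concerns a transcription factor, C/EBPβ. The windows hold the 250 bases before the RefSeq start (GRCm38.p6), 5′ to 3′ on the gene's strand. Il2ra lies at chr2:11642542-11642791 and Ncr1 at chr7:4337465-4337714, both on the plus strand. Another RefSeq start of Ncr1 had a window at chr7:4337474-4337723, which overlaps the first and is not shown. Capitals mark matches, on either strand, to any of 5 motifs, those of the C/EBP, PU box, GATA, T-box and NF-kB families. RefSeq windows were found for 25 of the 37 genes. Klrd1 had no window.
Il2ra: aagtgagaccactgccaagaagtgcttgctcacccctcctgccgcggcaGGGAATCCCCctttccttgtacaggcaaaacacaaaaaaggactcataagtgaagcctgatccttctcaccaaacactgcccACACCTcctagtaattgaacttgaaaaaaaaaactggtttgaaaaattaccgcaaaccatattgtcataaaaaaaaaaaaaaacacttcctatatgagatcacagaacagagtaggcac
Ncr1: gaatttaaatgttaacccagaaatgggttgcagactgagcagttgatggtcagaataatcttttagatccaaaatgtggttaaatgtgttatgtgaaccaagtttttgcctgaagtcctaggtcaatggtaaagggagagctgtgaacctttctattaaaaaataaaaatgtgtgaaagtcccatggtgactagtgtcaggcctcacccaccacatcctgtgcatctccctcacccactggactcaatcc

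The Il2ra window held an NF-kB match on both strands, 201 to 192 bases before the start, and a T-box match on the opposite strand, 119 to 114 bases before it. Neither Ncr1 window held any of the 5. Over all 32851 windows of this length 5.0% held an NF-kB match. The T-box letters, AGGTGT, were in 11.8% of windows. The C/EBP letters, TTGCNNAA, the motif family of the factor named in the series' title, were in 9.56% of windows. The GATA letters, AGATAA, bound by the family of the Gata3 product, were in 9.99% of windows. The PU box letters, GAGGAA, bound by a factor that dendritic cells need, were in 23.3%. These matches describe the letters of the windows only.

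The NK receptor genes did not move together: 1 of 8 rose (0.879% of all genes), 1 fell (0.546% of all genes) and 6 did not pass. Ncr1 marks NK cells and group 1 innate lymphoid cells. It measured 5.46, 5.72 and 6.06 at the lowest, median and highest over the naive arrays (probeset 17473300), and 6.18, 6.21, 6.18, 6.01 and 6.31 on exposed arrays 1, 2, 3, 4 and 6. On this gene 4 exposed arrays lay above every naive array, and exposed array 4 lay below naive array 2 only. The naive mean, 5.72, was near the dim mark of 5.61, and the lowest naive array, number 6, was below it. Ncr1 rose 1.37-fold, by 0.46 ± 0.09 (SE; limma adjusted p = 0.0289; exact permutation test, two-sided, p = 0.00649). Arrays 1 to 3 gave 0.35 and arrays 4 to 6 gave 0.56. Ncr1 passed without naive array 2, exposed array 1 or exposed array 4, and in no other fit with an array left out (adjusted p up to 0.0822, without exposed array 2). With replicate numbers as a block it gave 0.44 (adjusted p = 0.0678, title number).

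Other genes of NK cells lay beside Ncr1 without passing. Klrb1c, which encodes the NK1.1 antigen, differed by 0.29 ± 0.11 (SE; limma adjusted p = 0.252) and Klre1 by 0.21 ± 0.07 (adjusted p = 0.227), both on dim probesets. Cd226, which encodes the activating receptor DNAM-1, had 0.35 ± 0.11 (adjusted p = 0.142). Its naive arrays ranged from 5.26 to 5.63 while its exposed arrays ranged from 5.63 to 6.12. The value where these ranges met was identical on 4 arrays of Cd226 and lay near the dim mark. Klrk1, the gene of the activating receptor NKG2D, had 0.17 (adjusted p = 0.541). Cd96, a receptor for the same ligand as DNAM-1, had 0.07, and the inhibitory receptor gene Klrg1 had -0.02.

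Klrd1 ran the other way. CD94 pairs with NKG2 proteins to read a non-classical MHC class I molecule. Over the naive arrays it measured 9.97, 10.11 and 10.33 at the lowest, median and highest (probeset 17463567), and on exposed arrays 1, 2, 3, 4 and 6 it measured 9.33, 9.83, 9.28, 9.65 and 9.93. All exposed arrays lay below all naive arrays, as for no other gene of the list (2.70% of the list; 0.875% of all genes). Klrd1 was 1.44-fold lower, a difference of -0.52 ± 0.12 (SE; limma adjusted p = 0.0452; exact permutation test, two-sided, p = 0.00216, the smallest possible). Arrays 1 to 3 gave -0.70 and arrays 4 to 6 gave -0.28. Klrd1 passed with exposed array 6 left out, and in none of the other 10 such fits (adjusted p up to 0.103, without naive array 6). It missed the threshold without the mean-variance trend (adjusted p = 0.0565) and after median centring (adjusted p = 0.0537). The mean of the type 2 dendritic cell markers, 0.27 lower in exposed arrays, moved in the same direction. Of the 8 markers 6 had differences below 0 and 2 above. Their part in this result was not tested.

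**Figure D3:**
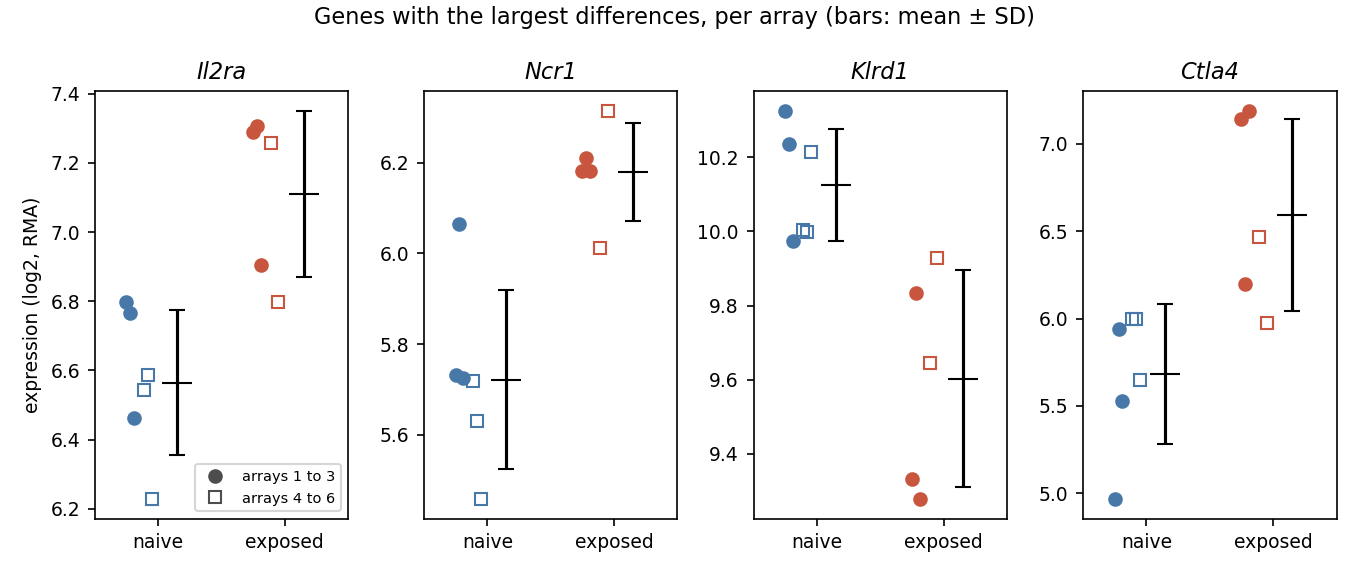
Expression in log2 units of the 4 listed genes with the largest differences, in each array, on a separate axis for each gene. Filled circles are arrays 1 to 3, open squares arrays 4 to 6, and bars the mean ± SD of 6 naive and 5 exposed arrays. Il2ra and Klrd1 do not overlap between groups, Ncr1 overlaps by 1 naive array and Ctla4 spreads over more than 1 unit within a group.

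Klrd1 belongs to the killer cell lectin-like receptor family, which lies in a cluster on chromosome 6, and the whole family was read after the result for Klrd1 was seen. Of 23 measured Klr genes, all on chromosome 6, 1 rose (0.879% of all genes), 3 fell (0.546% of all genes) and 19 did not pass. A mean above the dim mark was found for 10 of them (56.9% of all genes). Klrb1f, an activating receptor of the NKR-P1 group, was 1.53-fold lower (-0.62 ± 0.12, SE; limma adjusted p = 0.0254), and 4 of 5 exposed arrays lay below all naive arrays. Klri2 was 1.33-fold lower (-0.41 ± 0.08, SE; adjusted p = 0.0300). Klri1, next to it in the order of the measured Klr genes, differed by -0.46 ± 0.11 (adjusted p = 0.0573). Both form receptors with the product of Klre1, which differed by 0.21. Klrb1b, an inhibitory receptor of the NKR-P1 group, rose 1.45-fold, from 6.47 ± 0.15 to 7.01 ± 0.29 (adjusted p = 0.0400), and each exposed array exceeded the naive range. Klrb1b and Klrb1f come next to each other in the order of the measured Klr genes, and they differed in opposite directions. That order leaves out genes of other families. Klra2 had the largest difference of the family, 1.10 ± 0.27, and did not pass (adjusted p = 0.0667).

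These calls also turned on single arrays. Klri2 passed in 4 of the 11 fits with an array left out (without naive array 1 or 3 or exposed array 4 or 6), Klrb1f in 3 (without naive array 3 or exposed array 1 or 6) and Klrb1b in 2 (without exposed array 3 or 6). Scaling ended some of them as well. The Klrb1b difference missed the threshold after quantile normalisation (limma adjusted p = 0.0557) and after alignment at the 75th percentile (adjusted p = 0.0677), and the Klri2 difference after median centring (adjusted p = 0.0543). Family members are close copies of each other, and the probesets that name several of them were left out, so cross-hybridisation between copies is possible and was not tested. Over the wider list of 14 NK receptor and adaptor genes outside the 37, 1 rose (0.879% of all genes), 3 fell (0.546% of all genes) and 10 did not pass. Besides Klrb1b, Klrb1f and Klri2, the change was in Cd7, a surface protein of T and NK cells, which went from 12.02 ± 0.08 to 11.65 ± 0.18 (1.29-fold lower; adjusted p = 0.0237), and no exposed array reached the naive range. Cd7 passed in 4 fits with an array left out, those without naive array 1 or 5 or exposed array 1 or 6, and the Cd7 difference missed the threshold with the characteristic's number as a block (limma adjusted p = 0.0683).

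**Figure D4:**
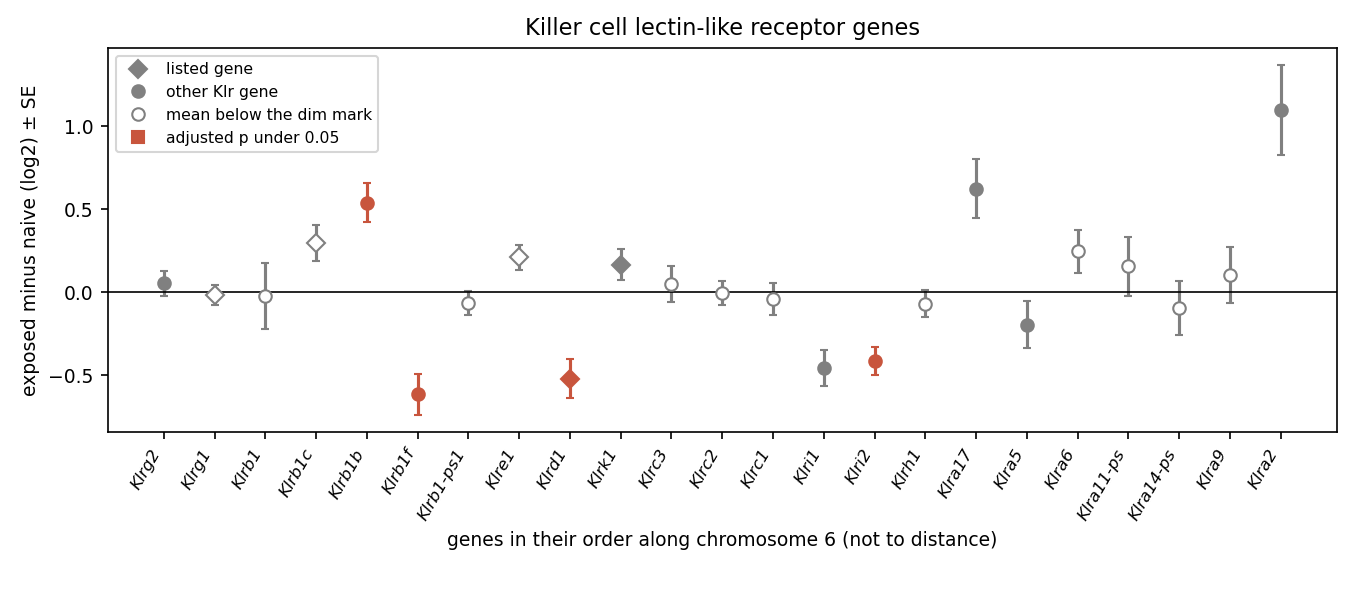
Difference between exposed and naive arrays ± SE, in log2 units, for 23 Klr genes in their order along chromosome 6, not to distance. Diamonds are genes of the list, circles other genes, open symbols genes with a mean below the dim mark, and coloured symbols genes that passed. In this order of measured Klr genes, the gene that rose (Klrb1b) comes next to a gene that fell (Klrb1f). The other genes that fell (Klrd1, Klri2) come farther along.

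None of the 6 cytotoxic effector genes passed in limma, and 2 reached an unadjusted p under 0.05 (12.2% of all genes). Prf1, the pore-forming perforin of killer cells, differed by 0.28 ± 0.08 (SE; adjusted p = 0.136). Its naive arrays lay between 5.76 and 6.09 and its exposed arrays between 6.09 and 6.44. The value where these ranges met was identical on 3 arrays. Nkg7, a granule membrane protein gene, differed by 0.25 ± 0.09 (adjusted p = 0.211), and 4 exposed arrays exceeded the naive range. Exposed array 4 was the low one for Nkg7, at 5.95, against 6.28 to 6.37 on the other exposed arrays. The granzyme genes Gzma and Gzmb, whose products enter target cells through perforin pores, differed by -0.07 each. Fasl, the death ligand, differed by -0.14 (adjusted p = 0.484) and Ifng, the gene of interferon gamma, by 0.13 (adjusted p = 0.559). For Ifng, arrays 4 to 6 gave 0.31 and arrays 1 to 3 gave 0.0004.

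Among 10 effector and cytokine genes outside the list, 1 rose (0.879% of all genes) and 0 fell (0.546% of all genes). Xcl1, a chemokine that draws type 1 conventional dendritic cells and is made by NK cells and activated CD8 T cells, rose 1.85-fold, by 0.89 ± 0.15 (SE; limma adjusted p = 0.0162). It measured 7.57, 7.35, 7.67, 6.80 and 7.43 on exposed arrays 1, 2, 3, 4 and 6, of which 4 lay above the highest naive array, at 6.80, and array 4 was level with it. Xcl1 passed in all 11 fits with an array left out, with 0.87 in arrays 1 to 3 and 0.82 in arrays 4 to 6.

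The CD3 genes did not pass, and they did not move as one. Cd3e lay between 5.39 and 5.60 on naive arrays, and 4 exposed arrays lay above that, at 5.71, 5.83, 5.74 and 5.95, while exposed array 4 lay below it, at 5.36. Its difference was 0.25 ± 0.09 (SE; limma adjusted p = 0.256). Cd3e passed with exposed array 4 left out (0.34, adjusted p = 0.0419) and in no other such fit. Cd3g differed by 0.34 ± 0.11 (adjusted p = 0.169; exact permutation p = 0.00433), from 4.46 ± 0.12 (SD, n = 6) to 4.80 ± 0.26 (SD, n = 5), below the dim mark throughout. Cd3d differed by -0.07 ± 0.06 (adjusted p = 0.748). The deposited value of Cd3d was exactly the same, 5.40, on 7 of the 11 arrays. Such repeats narrow a group's spread: 11 of the 37 genes, or 29.7%, had at least 3 arrays at an identical value, against 23.3% of all genes.

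Of 5 other T cell surface genes 0 passed in limma, with 2 at an unadjusted p under 0.05, 1 higher and 1 lower (12.2% of all genes in either direction). Cd5, an inhibitor of antigen receptor signalling also carried by a subset of type 2 dendritic cells, was on the lower side, from 8.73 ± 0.16 (SD, n = 6) to 8.45 ± 0.17 (SD, n = 5; adjusted p = 0.187). Thy1, a T cell and innate lymphoid cell surface marker, differed by 0.16 (adjusted p = 0.384), and exposed arrays (6.32 to 6.58) overlapped naive arrays (6.09 to 6.40). Cd6, a relative of Cd5, differed by 0.07 and Cd2, an adhesion molecule, by 0.08. Cd8b1, the beta chain of the CD8 co-receptor, differed by 0.18 (adjusted p = 0.704), with 0.41 within arrays 1 to 3 and -0.15 within arrays 4 to 6. The limma interaction between group and number set had an adjusted p of 0.992 for Cd8b1, and it passed for 0 of the 37 genes and 0 of all genes. At an unadjusted p under 0.05 the limma interaction held 4 of the 37 genes (10.8%) and 943 of all genes (4.25%).

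None of the 3 signalling genes of the T cell receptor passed in limma, with 1 at an unadjusted p under 0.05 (12.2% of all genes). Lat, the adaptor that links the receptor to its downstream enzymes, differed by 0.19 ± 0.08 (SE; limma adjusted p = 0.331), 3 exposed arrays beyond the naive range and the highest, 6.41, on exposed array 2. The adaptor gene Skap1 differed by -0.04 and the Tec family kinase gene Txk by 0.03. Of 12 receptor and signalling genes outside the list 0 passed in limma, with 3 at an unadjusted p under 0.05 (12.2% of all genes). The largest difference was that of Cd4, -0.48 ± 0.13 (adjusted p = 0.107). Cd4 encodes the co-receptor of helper T cells, is also carried by type 2 dendritic cells of the mouse spleen, and was bright here, at 11.46 ± 0.23 (SD, n = 6) and 10.97 ± 0.30 (SD, n = 5). It passed with exposed array 6 left out (-0.60, adjusted p = 0.0181), and with a block on the number set (-0.44, adjusted p = 0.0170) or on the title number (-0.45, adjusted p = 0.0299). Of 15 alternatives other than leaving out an array, Cd4 passed in these 2 only.

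All 5 costimulator and checkpoint genes had differences above 0, as had 53.5% of all genes. None passed in limma, with 3 at an unadjusted p under 0.05 (12.2% of all genes). Ctla4, which outcompetes CD28 for its ligands CD80 and CD86 and restrains T cells, had the largest difference of the list. It measured 4.97, 5.79 and 6.00 at the lowest, median and highest over the naive arrays (probeset 17213478), and 7.14, 6.20, 7.19, 6.47 and 5.98 on exposed arrays 1, 2, 3, 4 and 6. The high exposed arrays were 1 and 3, and exposed array 6 lay inside the naive range. The difference was 0.91 ± 0.24 (SE; 1.88-fold; limma adjusted p = 0.0857; exact permutation p = 0.00649), with 95% limits of 0.40 to 1.43. Arrays 1 to 3 gave 1.36 and arrays 4 to 6 gave 0.34 (limma interaction adjusted p = 0.992). Ctla4 passed with exposed array 6 left out (1.07, adjusted p = 0.0372) and in no other such fit. The red pulp macrophage markers, which were also higher in arrays 1 to 3 (mean difference 1.16) than in arrays 4 to 6 (0.21), were highest on exposed arrays 1 (10.91) and 2 (9.99), and on exposed array 3 they averaged 9.14. Their part in this result was not tested.

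Cd28, the main costimulatory receptor of T cells, differed by 0.19 (limma adjusted p = 0.377) on a dim probeset, and Icos, its inducible relative, by 0.18 (adjusted p = 0.289). Lag3, an inhibitory receptor for MHC class II that plasmacytoid dendritic cells also carry, differed by 0.12 (adjusted p = 0.695). Arrays 1 to 3 gave 0.29 and arrays 4 to 6 gave -0.13. Markers of plasmacytoid dendritic cells averaged between 7.49 and 7.77 on naive and between 7.64 and 7.99 on exposed arrays, with 0 of 8 passing. At an unadjusted p under 0.05 in limma 2 of the 8 were higher (7.17% of all genes) and 0 lower. The differences of 5 were above 0 and those of 3, Siglech, Ccr9 and Tcf4, below. Pdcd1, the gene of PD-1, differed by 0.05, with 0.16 within arrays 1 to 3 and -0.13 within arrays 4 to 6. Of 8 costimulator and checkpoint genes outside the list 0 passed in limma, with 2 at an unadjusted p under 0.05 (12.2% of all genes). The largest difference was that of Havcr2, the gene of TIM-3, at -0.36 ± 0.10 (limma adjusted p = 0.116).

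The 4 transcription factor genes had differences just below 0, and 0 reached even an unadjusted p under 0.05 in limma (12.2% of all genes). Tbx21, the gene of T-bet, the factor of type 1 helper T cells and NK cells that dendritic cells also express, stayed at 8.08 ± 0.14 (SD, n = 6) and 8.05 ± 0.20 (SD, n = 5; 95% limits of the difference -0.23 to 0.17). Eomes, its relative in NK and CD8 T cells, differed by -0.09, Bcl11b, which commits cells to the T lineage, by -0.10 and Gata3, the factor of type 2 helper T cells and innate lymphoid cells, by -0.02. The other Gata3 probeset gave -0.03. Among 10 lymphoid transcription factor genes outside the list 0 passed, with 2 at an unadjusted p under 0.05 (12.2% of all genes). Runx3, which acts in CD8 T cells, NK cells and dendritic cells, had the largest difference, -0.36 ± 0.09 (adjusted p = 0.0748), and passed with exposed array 3 left out (-0.43, Runx3 difference; adjusted p = 0.0335), as in none of the other 10 such fits. Runx3 also passed in 6 of 15 alternatives other than leaving out an array. Among these were blocks on the number set (-0.38, limma adjusted p = 0.00888), the title number (-0.39, adjusted p = 0.0238) or the characteristic's number (adjusted p = 0.0412). Median centring (adjusted p = 0.0475) and the genes above the dim mark (adjusted p = 0.0463) were others. Runx3 missed the threshold after quantile normalisation (adjusted p = 0.0953) and without the mean-variance trend (adjusted p = 0.0913), among others.

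**Figure D5:**
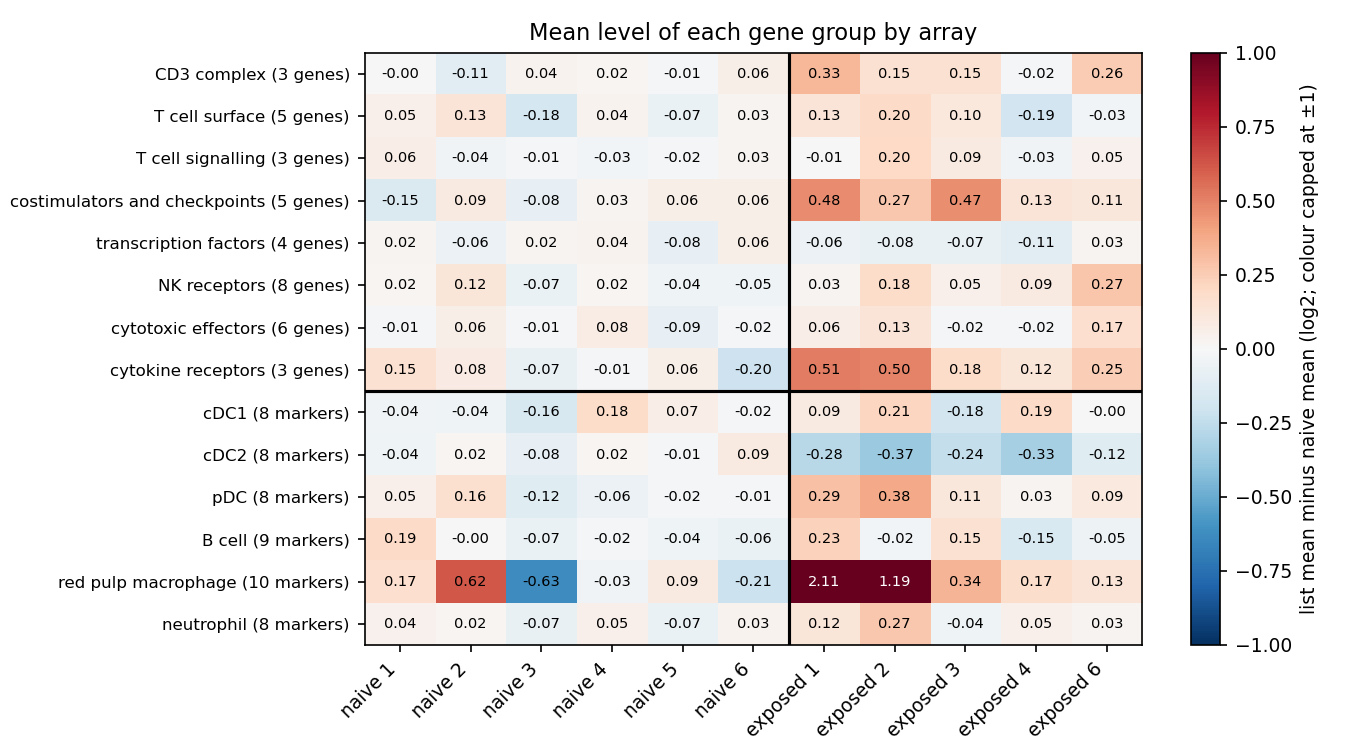
Mean level of each group of genes on each array in log2 units, as the difference from the group's naive mean. The upper 8 rows are the listed genes by role and the lower 6 rows markers of other cells. Among the listed groups, costimulators, NK receptors and cytokine receptors are above their naive mean on all 5 exposed arrays. The plasmacytoid dendritic cell and macrophage markers are too, and the macrophage markers reach 2.11 above theirs on exposed array 1. Type 2 dendritic cell markers are below their naive mean on all 5.

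Dendritic cells meet these receptors through ligands of their own. Of 22 genes for ligands and partners of the listed proteins, 2 rose (0.879% of all genes), 0 fell (0.546% of all genes) and 20 did not pass. Fas, the receptor of the Fasl product, rose 1.60-fold, by 0.68 ± 0.11 (SE; limma adjusted p = 0.00866), and each exposed array exceeded the naive range. It passed in all 11 fits with an array left out. Il12b, a subunit of interleukin 12, which drives interferon gamma in NK and T cells, rose 1.75-fold, by 0.81 ± 0.17 (SE; adjusted p = 0.0300). Il12b passed in 3 of those fits, without naive array 4 or exposed array 1 or 6. The Il12b difference missed the threshold with the characteristic's number as a block (limma adjusted p = 0.0774). Il12a, the gene of the other interleukin 12 subunit, differed by -0.01 (limma adjusted p = 0.977) and was above the dim mark on 0 arrays.

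The ligands of CTLA-4 and CD28, Cd80 and Cd86, differed by -0.48 (limma adjusted p = 0.0755) and -0.22 (adjusted p = 0.259). The ligands of PD-1, Cd274 and Pdcd1lg2, differed by -0.001 and 0.12. Icosl, the ligand of ICOS, differed by 0.07, Il15, whose product acts through the Il2rb chain, by 0.08 and Il18 by 0.13. H2-T23, the molecule that CD94 reads, differed by -0.14 (adjusted p = 0.520).

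Whether genes of one lymphocyte type varied together from array to array was asked for 11 pairs, after each group's mean was removed. No pair passed. For Ncr1 and Klrb1c, Pearson's r was 0.47 (permutation p = 0.195, adjusted p = 0.667) and Spearman's rho 0.63 (permutation p = 0.0593, adjusted p = 0.652) over 11 arrays. The r was 0.31 without the 2 arrays farthest from the median of Ncr1, and 0.30 when number set means were removed as well. Cd3e gave an r of 0.33 with Cd3g (rho 0.24; permutation p = 0.453 and 0.497, both adjusted p-values at 0.667 or above) and of -0.27 with Cd3d (rho -0.19; permutation p = 0.458 and 0.580). Without the 2 arrays farthest from the median of Cd3e these became 0.03 and -0.57. Cd3e and Ncr1 gave an r of 0.17 (rho 0.16; permutation p = 0.546 and 0.636), which became -0.53 without the 2 farthest arrays. With the B cell gene Cd79a the r was 0.13 for Cd3e (rho -0.07) and 0.37 for Ncr1 (rho 0.28; permutation p = 0.241 and 0.408). Over the 11 pairs the adjusted p for r lay between 0.667 and 0.838.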

How the data were processed

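Splenic dendritic cells of 11 samples were measured on a 1-colour Affymetrix mouse gene array after whole-transcript labelling of total RNA. The deposited values are log2 expression made by the authors with RMA, per the submitters' processing notes, whose version and genome build are not given in the sources used here. RMA subtracts background, equalises array distributions and gives 1 summary per probeset, so changes shared by most genes are removed. Of 41801 probesets, 7329 were blank on every array. Of the other 34472, 23521 named 1 gene, 1814 several and 9137 none. The probeset with the highest mean stood for a gene, and 14 older symbols were updated through a GRCm38.p6 gene table.

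Differences are exposed minus naive, from limma 3.58.1 (lmFit, eBayes with trend) in R 4.3.3 over 22180 genes. The same fit was also run on simulated data, drawn independently for each array and so without number sets. SE is limma's moderated standard error. Exact permutation tests ran over all 462 divisions, and correlations used 100000 permutations within groups. Genes named outside the list were, per role, up to 3 passing in each direction or else the largest difference, and the passing markers; the ligands besides Fas and Il12b, Klri1 and Klra2 were named after their values were seen. The listed genes, other lists and tests were chosen with earlier results of these data known. Alternatives were other moderation, scaling, dim filters, probeset rules, blocks, number sets and each array left out. Some genes of the other lists were not analysed here.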

Additional observations from a re-analysis of the deposited data

Results flagged for a closer look

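Each group of arrays was searched for a sample whose gap to its nearest neighbour was large for the group's range (Dixon's criterion), over 52 genes and 104 groups. It marked 9 values, and chance marks about 1 group in 20. Array 3 stood apart among the naive arrays for Cd3d (5.55, others 5.36 to 5.41), for Cd6 (6.16, others 6.46 to 6.59) and for Il18r1 (5.10, others 5.226 to 5.234). Naive array 4 was high for Klrg1 (5.43, others 5.14 to 5.25) and naive array 6 low for Gzma (3.87, others 4.02 to 4.07). Among the exposed arrays, array 2 was low for Cd3d (5.17, others 5.39 to 5.41) and for Gata3 (5.61, others 5.75 to 5.81). Exposed array 4 was low for Nkg7 (5.95, others 6.28 to 6.37), and exposed array 6 was high for Tbx21 (8.39, others 7.91 to 8.04). For Cd3d, Gata3, Klrg1 and Il18r1 between 5 and 7 arrays held an identical value, which shrinks the range that a single array is set against.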

How the results depend on the processing

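In alternatives other than leaving out an array, Il2ra, Ncr1 and Klrd1 kept their direction, and passed in 11 of 15, 10 of 14 and 10 of 15. For the count of changed genes and the count of changed members of the list, arrays numbered 1 to 3 alone gave 11 and 0 by limma, and arrays numbered 4 to 6 alone gave 5 and 0, where 2548 and 1740 genes, 10 and 8 of them in the list, had an unadjusted p under 0.05. A replicate block on the characteristic's number, in which 1 naive array has no partner and drops out, gave 179 and 1, a replicate block on the title number 344 and 2, and a block on the number set 617 and 3. Leaving out 1 array gave 104 to 395 and 0 to 3. Arrays sharing a title number correlated at 0.0880 to 0.231 once group means were removed, and 2 of 5 exposed arrays correlated best with their own number, so the numbers were not taken to pair arrays.

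Small differences changed sign: Txk aligned at the 75th percentile (-0.00570) and in arrays 4 to 6 (-0.00544), Tbx21 and Cd96 with the characteristic's block (0.0113 and -0.000296), and Klrg1 and Gzmb in arrays 1 to 3 (0.00774 and 0.0820). In arrays 4 to 6 Cd6 (-0.0714), Cd2 (-0.0572), Cd8b1 (-0.153), Lag3 (-0.133), Pdcd1 (-0.126), Gata3 (0.0227), Tbx21 (0.00364), Gzma (0.129) and Il18r1 (-0.0773) did too. Leaving out 1 array gave ranges across 0 for Cd6 (-0.00258 to 0.109), Txk (-0.0201 to 0.0694), Pdcd1 (-0.0529 to 0.136), Gata3 (-0.0350 to 0.0156), Tbx21 (-0.113 to 0.0113), Klrg1 (-0.0441 to 0.0176), Cd96 (-0.000296 to 0.125), Gzma (-0.143 to 0.0269) and Il18r1 (-0.0283 to 0.0844). The causes were not tested. For genes outside the list, the alternatives were chosen after seeing the data. The 17 listed genes with a mean below the dim mark have little signal over background, which limits what their differences can show.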
